A study of Mus musculus with 17 samples.

Results

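The alpha-globin locus of mouse embryonic stem (ES) cells, where the globin genes are silent, was viewed from 2 anchor points in the same libraries. The anchors, called viewpoints, were R2, an enhancer of the alpha-globin genes, and a site bound by CTCF, an insulator protein, on the far side of the enhancers from the genes. All 7 ES libraries of the 17 in the series were used, and they were summed into 3 biological replicates from 3, 2 and 2 technical replicates. The comparison was made on 2 kb bins of chromosome 11 from 32 to 32.3 Mb (mm9), and bins with a centre within 5 kb of either viewpoint were left out, which kept 140 of 150 bins. Tri-C cuts cross-linked chromatin with the restriction enzyme NlaIII, ligates what lies together, and captures molecules that hold a viewpoint with oligonucleotides. Where such a molecule holds a pair of further fragments beside the viewpoint, it records that all of them met on 1 allele, a three-way contact.

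The ES cells were the E14 line, of strain 129/Ola, with no treatment named. The 10 erythroid libraries, used only for contrast, came from Ter-119+ spleen cells of C57BL/6 mice, which were made anaemic by 3 doses of phenylhydrazine at 40 mg/g body weight, 12 hours apart, and killed after 5 days. They too form 3 biological replicates. The cell types also differ in strain, and effects of strain and of cell type cannot be told apart. E14 is a single established line, the Ter-119 selection takes in several stages of red cell maturation, and the labels do not say whether biological replicates are separate cultures or animals. If they are not, p-values reflect the spread among these samples alone, which may be technical. A contact assay holds no expression values, so the cell identities could not be checked against marker genes.

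In red blood cell precursors the alpha-globin genes are switched on by a group of enhancers that lies upstream of them. Most of these lie inside introns of the neighbouring gene Nprl3, whose protein is a subunit of a complex that restrains growth signalling. CTCF binds its sites in a fixed orientation and, together with cohesin, halts the extrusion of chromatin loops, so that pairs of CTCF sites often bound a contact domain. In ES cells the enhancers are not active. The design therefore asks how far the enhancer and the flanking CTCF site see different surroundings on an allele whose globin genes are silent. In the reference gene order the locus reads Il9r, Snrnp25, Rhbdf1, Mpg, Nprl3, Hba-x, Hba-a1, Hbq1b, Hba-a2, Hbq1a and Sh3pxd2b, and no window was set for Nprl3 or the Hbq1 genes. No mm9 annotation was used. Windows of enhancers and CTCF sites were placed by the usual names of the elements, which count kb from Hba-x. Those of the genes were set at fixed positions in kb from Hba-x and were not checked against an annotation, so their bounds are approximate. Hba-x was taken to lie 26 kb above the centre of R2.

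Neither viewpoint is listed as a contact of its own table, and each was read as the longest stretch without listed fragments. The stretch for R2 was 32149923 to 32152111 and that for the CTCF site was 32136092 to 32138888, so that the centres lay 13.5 kb apart. The R2 table held 431427, 139337 and 213319 pairs of fragments in replicates 1, 2 and 3, of which 127604, 62844 and 63512 had both fragments in the range. The table of the CTCF site held 382914, 129858 and 176121 pairs, with 102186, 50989 and 45369 in the range. Levels below are contacts per 1000 in-range pairs of the same viewpoint and replicate, and each pair adds 1 contact for each of its fragments, to the bin that holds it. A given fragment pair was counted 5.42 to 8.20 times on average in a library. In replicate 2 the pairs lay closer together than in the others: outside the 5 kb zones, 77.5% of its R2 pairs and 73.7% of its CTCF-site pairs had fragments under 1 kb apart, against 49.2% to 56.3% in replicates 1 and 3. Its share of in-range pairs was also higher, at 45.1% and 39.3% against 25.8% to 29.8%. The part of these differences in the results was not tested beyond the values without replicate 2 that are given.

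In the bins kept, R2 had more contacts than the CTCF site on the side of the globin genes, and the CTCF site had more than R2 on the side of Mpg and Rhbdf1. These stretches lie at different distances from the viewpoints, and sides at equal distances are given further on. From R2 to 50 kb beyond Hba-x, the R2 viewpoint had 682, 719 and 652 contacts per 1000 pairs and the CTCF site 413, 403 and 407. On the far side of the CTCF site the order was turned, with 435, 363 and 398 from R2 against 756, 715 and 777 from the CTCF site. The groups were fully apart in both stretches, by 684 ± 33.4 against 408 ± 5.04 and by 399 ± 36.1 against 749 ± 31.7 (SD, n = 3). Beyond 50 kb from Hba-x, where Sh3pxd2b lies, the groups overlapped, at 126 ± 21.9 from R2 and 112 ± 4.23 from the CTCF site.

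**Figure D1:**
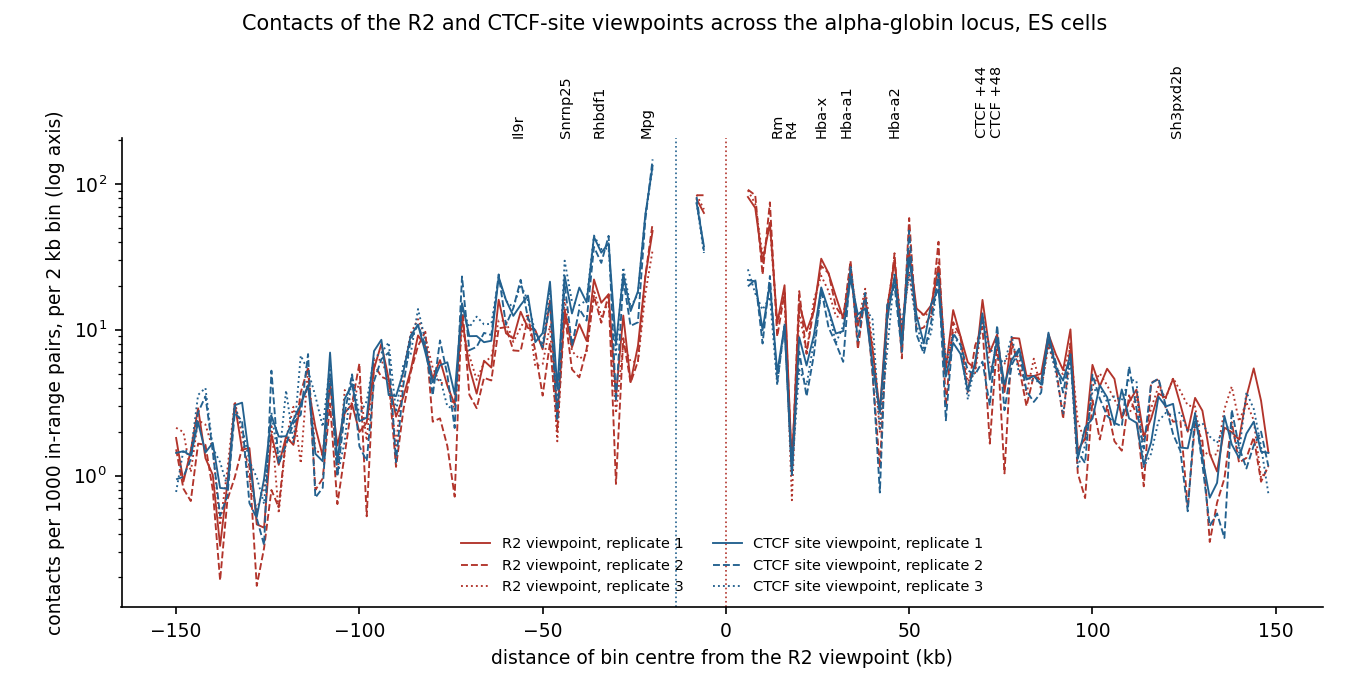
Contacts per 1000 in-range pairs (log axis) in each 2 kb bin, by distance from R2 in kb, with 1 line per viewpoint and ES replicate; dotted vertical lines mark R2 (red) and the CTCF site (blue), and lines break at bins left out. The R2 lines lie above those of the CTCF site in most bins between R2 and Hba-x, apart from the dip at R4 where they overlap, and below them in most bins at Mpg and Rhbdf1, while peaks and dips fall in the same bins from both viewpoints.

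In edgeR's quasi-likelihood test with the replicate as a block, 45 of the 140 bins differed between the viewpoints at an adjusted p under 0.05, which is 32.1% of those tested. The R2 side accounted for 17 (12.1%) and the CTCF side for 28 (20%). The 17 bins higher from R2 were 16 of the 36 bins from R2 to 50 kb beyond Hba-x and 1 of the 2 bins between the viewpoints. All 28 bins higher from the CTCF site lay upstream of it, among 66 there. None of the 36 bins beyond 50 kb passed the threshold in either direction. Replicate values of the viewpoints did not overlap in 47 bins (33.6%). edgeR found no spread of its own for single bins and pooled it over all of them, so a p at 1 bin is far smaller than 3 pairs alone could give. With every contact scaled to the total of its table, 27 bins were higher from R2 and 24 from the CTCF site, and the median over all bins moved from -0.06 to 0.08 on the log2 scale. With the first technical replicate alone 29 bins were called, and without replicate 3 there were 21, each time with both directions represented.

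The largest differences higher from R2 lay next to it. At 32156001 to 32158000, 6 kb beyond R2 on the gene side, the levels were 81.4, 91.3 and 90.5 contacts per 1000 pairs from R2 and 21.9, 19.8 and 25.9 from the CTCF site. The log2 difference, always R2 minus the CTCF site, was 1.96 (SE 0.14, adjusted p = 2.17e-32, edgeR). The 4 other bins named on this side lay 8 to 14 kb from R2, with log2 differences of 1.88, 1.55, 1.46 and 1.19 in order of size. On the side of Mpg the bin at 32130001 to 32132000 had 47.6, 53.7 and 35.1 contacts from R2 and 133, 147 and 129 from the CTCF site, a log2 difference of -1.61 (SE 0.15, adjusted p = 2.72e-21, edgeR). The other 4 bins named there had log2 differences between -1.49 and -1.38, and 3 of them lay at -8.5, -12.5 and -16.5 kb from the CTCF site, where minus is upstream. In the one at -16.5 kb the replicates of the viewpoints overlapped, and its call was lost without replicate 3 (adjusted p = 0.0627, edgeR). The last, at 32012001 to 32014000, lay at -124.5 kb and held under 1 contact per 1000 pairs from R2. It missed the threshold without replicate 2 (adjusted p = 0.0504, edgeR), without the replicate block (0.0508), with close pairs left out (0.0822) and with the first technical replicate alone (0.606).

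Within the enhancer cluster, contacts of R2 were highest with its neighbours. R1, the other strong enhancer, had 103 ± 16.9 contacts per 1000 pairs from R2 and 46.0 ± 3.66 from the CTCF site, and R3 had 133 ± 6.17 and 34.1 ± 5.20 (SD, n = 3). These windows touch the zone around R2, so no test was made. Rm, a weaker enhancer of the cluster that lies 14 kb from R2, gave 37.4, 46.1 and 35.4 contacts from R2 and 16.3, 18.0 and 12.3 from the CTCF site. All replicates from R2 lay above all those from the CTCF site, and the difference was 2.56-fold, a log2 difference of 1.36 (SE 0.13, adjusted p = 1.02e-19, edgeR). Rm passed the threshold under all 14 alternatives run, with log2 differences of 0.89 to 1.54. R4, the member of the cluster closest to the genes, had 6.30, 6.65 and 4.08 contacts from R2 and 3.93, 3.86 and 3.90 from the CTCF site, with no overlap. Its log2 difference was 0.51 (SE 0.32, adjusted p = 0.246, edgeR), and it passed the threshold with each fragment pair counted once (0.56) and with contacts scaled to the table total (0.81). The dip at R4 was shared: the bin at 32168001 to 32170000 had 1.17, 1.098 and 0.68 contacts from R2 and 1.01, 1.0983 and 1.04 from the CTCF site.

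The windows of all 3 globin genes had positive differences, of which those of Hba-x and Hba-a2 passed the threshold, and the difference between Hba-a1 and Hba-a2 was not tested. Hba-x, which encodes the embryonic zeta chain, had 34.7, 31.2 and 28.1 contacts per 1000 pairs from R2 and 23.0, 21.5 and 21.05 from the CTCF site. The 1.43-fold difference (log2 0.52, SE 0.13, adjusted p = 0.000446, edgeR), showed no overlap between the viewpoints. It missed the threshold with the first technical replicate alone (log2 0.36, adjusted p = 0.302, edgeR) and without replicate 3 (log2 0.57, adjusted p = 0.0531, edgeR). The same held with pairs under 5 kb apart left out (log2 0.26, adjusted p = 0.358, edgeR). Hba-a1 and Hba-a2, the adult genes, encode the alpha chains of haemoglobin. At Hba-a2 the levels were 36.3, 39.3 and 36.1 from R2 and 27.6, 25.5 and 30.7 from the CTCF site, a log2 difference of 0.42 (SE 0.13, adjusted p = 0.005, edgeR). That call was lost without replicate 2 (log2 0.31, adjusted p = 0.3, edgeR) and without replicate 3 (log2 0.51, adjusted p = 0.0794, edgeR). It was also lost with each fragment pair counted once (log2 0.21, adjusted p = 0.0632, edgeR) and with close pairs left out (log2 0.39, adjusted p = 0.0962, edgeR). At Hba-a1 the levels were 30.7, 36.3 and 33.9 from R2 and 26.4, 26.6 and 32.1 from the CTCF site. They overlapped, and the log2 difference was 0.25 (SE 0.13, adjusted p = 0.141, edgeR), which passed the threshold when contacts were scaled to the table total (0.43).

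The adult genes are near-identical copies, which bears on reading their windows apart. The stretches before their start sites are shown for that reason, from RefSeq on GRCm38.p6, plus strand of chromosome 11, with the start site just after the last base. The letters in capitals are CCAAT and TATAA, motifs of many promoters.
Hba-a1: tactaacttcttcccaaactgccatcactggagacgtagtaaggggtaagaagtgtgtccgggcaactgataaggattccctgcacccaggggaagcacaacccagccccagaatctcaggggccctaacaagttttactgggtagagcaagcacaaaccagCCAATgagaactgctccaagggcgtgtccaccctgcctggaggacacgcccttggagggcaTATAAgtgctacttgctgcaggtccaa
Hba-a2: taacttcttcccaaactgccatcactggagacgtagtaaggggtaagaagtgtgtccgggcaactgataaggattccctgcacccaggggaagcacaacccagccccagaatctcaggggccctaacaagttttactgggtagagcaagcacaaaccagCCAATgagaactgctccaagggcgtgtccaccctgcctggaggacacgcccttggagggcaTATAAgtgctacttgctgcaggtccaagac

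Of the 250 bases of each stretch, 247 are shared and all 247 are identical, with 3 bases left over at an end because the annotated starts differ. Each promoter holds 1 CCAAT and 1 TATAA, both on the gene's strand, and none on the other strand. Among all 32851 promoters of the table, 33.8% hold CCAAT and 22.8% hold TATAA on either strand. CATG, the site of NlaIII, is in neither stretch, while 53.9% of promoters hold it. A read from these bases cannot be told apart between the copies, and the placing of such reads is not stated in the sources used here. No difference between Hba-a1 and Hba-a2 was therefore drawn.

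The downstream CTCF sites, at 44 and 48 kb from Hba-x, showed no call between the viewpoints. At +44 the levels were 20.3, 18.0 and 15.0 from R2 and 17.5, 10.1 and 16.0 from the CTCF site, with a log2 difference of 0.32 (SE 0.14, adjusted p = 0.0829, edgeR). At +48 they were 13.02, 9.34 and 10.4 against 11.8, 12.6 and 11.5, with a log2 difference of -0.14 (SE 0.17, adjusted p = 0.588, edgeR). The viewpoint groups overlapped at both sites. At +44 the threshold was passed when all contacts were scaled to the table total (0.49) or to those outside the zones (0.34), while without replicate 2 the difference at +48 was 0.01. The window of Sh3pxd2b, whose product is an adaptor of cell protrusions, stops where the range ends, at 32299999. Whether the gene runs past that point was not checked. This window had 80.4, 50.8 and 74.9 contacts from R2 and 56.8, 58.0 and 65.9 from the CTCF site. The R2 values straddled those of the CTCF site, and the log2 difference was 0.17 (SE 0.14, adjusted p = 0.406, edgeR), past the threshold with scaling to the table total (0.33).

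All 4 genes upstream of the CTCF site were contacted more from that site than from R2, and the difference was larger for the nearer genes. Mpg, which encodes a glycosylase of base excision repair, had 75.1, 80.1 and 56.9 contacts per 1000 pairs from R2 and 206, 211 and 201 from the CTCF site. This 2.94-fold difference (log2 -1.56, SE 0.16, adjusted p = 6.4e-18, edgeR), was the largest of the 12 windows tested. At Rhbdf1, which encodes an inactive relative of the rhomboid proteases, the levels were 80.7, 61.1 and 64.6 from R2 and 166, 146 and 161 from the CTCF site, with a log2 difference of -1.21 (SE 0.15, adjusted p = 1.35e-12, edgeR). Snrnp25 encodes a protein of the minor spliceosome, and its log2 difference was -0.78 (SE 0.13, adjusted p = 5.84e-08, edgeR) from 22.1, 19.1 and 24.1 against 37.6, 29.3 and 46.4 contacts. Il9r, the gene of the interleukin 9 receptor, had 62.4, 52.2 and 56.7 contacts from R2 and 83.8, 84.9 and 91.9 from the CTCF site. Its log2 difference was -0.61 (SE 0.14, adjusted p = 0.000106, edgeR), which missed the threshold without replicate 2 (-0.56) or replicate 3 (-0.56). At all 4 genes the replicates of the viewpoints did not overlap. Mpg, Rhbdf1 and Snrnp25 passed the threshold under every alternative run on these windows.

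**Figure D2:**
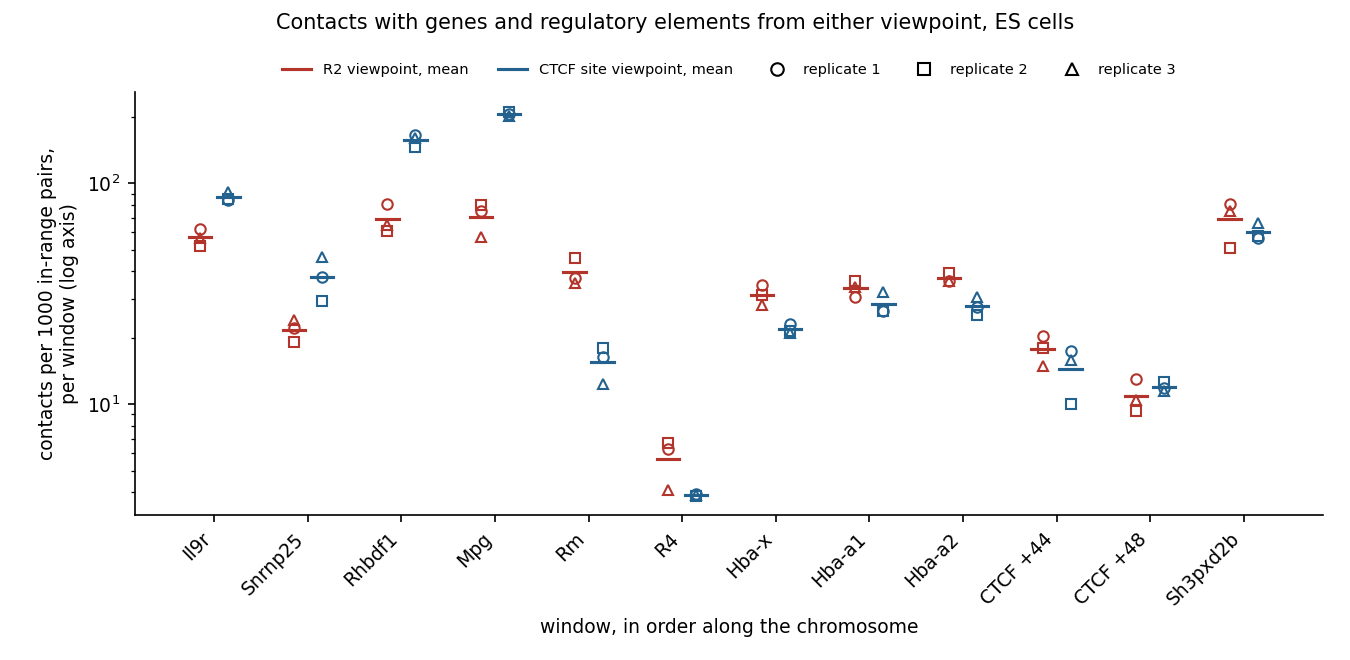
Contacts per 1000 in-range pairs (log axis) with the 12 tested windows in ES cells, in order along the chromosome, with R2 in red, the CTCF site in blue, 1 symbol per replicate and a bar at the mean. The windows differ in length, so levels compare between viewpoints and not between windows. From Il9r to Mpg all blue symbols lie above the red ones, and at Rm, R4, Hba-x and Hba-a2 all red symbols lie above the blue ones.

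Because the viewpoints lie 13.5 kb apart, a fixed bin has different distances to them. Contact frequency falls with distance, and this decay was fitted as a power law in each replicate. The exponent was -1.01, -1.15 and -1.05 from R2 and -1.02, -1.03 and -0.99 from the CTCF site, so the ranges overlapped (mean difference -0.05 ± 0.06, SD over 3 pairs, exact sign-flip permutation p = 0.5). It depended on the counting. The decay was steeper from R2 in all 3 replicates with a 10 kb zone (mean difference -0.085 ± 0.13) and with close pairs left out (-0.094 ± 0.077). With each fragment pair counted once, the mean exponents were -0.86 from R2 and -0.83 from the CTCF site. Measured against the expectation from the power law as first fitted, 4 of the 140 bins (2.86%) differed between the viewpoints in edgeR's quasi-likelihood test, where 22 had an unadjusted p under 0.05. Leaving out any 1 replicate, using the first technical replicate alone, or leaving out pairs with fragments under 5 kb apart each left 0 calls, with 8 to 26 bins at an unadjusted p under 0.05. Without the replicate block 2 bins were called, and DESeq2 with the same expectation called 13.

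Of the 4 bins, 2 were the bins between the viewpoints and were higher from R2. At 32144001 to 32146000, which R1 overlaps, observed over expected on the log2 scale was -0.31, -0.16 and -0.23 from R2 and -0.76, -0.84 and -0.88 from the CTCF site, and the difference was 0.59 (SE 0.09, adjusted p = 0.0265, edgeR). The other, at 32142001 to 32144000, stood at 0.43, 0.31 and 0.53 from R2 and -0.23, -0.08 and -0.18 from the CTCF site, a difference of 0.59 (SE 0.10) with the same adjusted p in edgeR. The remaining 2 bins were higher from the CTCF site. One, at 32116001 to 32118000 in the Rhbdf1 window, had a difference of -0.56 (SE 0.10), and the other, at 32082001 to 32084000 beyond Il9r, had -0.97 (SE 0.17), again with an adjusted p of 0.0265 in edgeR. In all 4 bins the observed over expected values of the viewpoints did not overlap.

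None of the 12 windows passed the threshold once distance was taken into account. Rhbdf1 came closest, with observed over expected of -0.13, -0.44 and -0.37 on the log2 scale from R2 and 0.15, 0.01 and 0.11 from the CTCF site. Its difference was -0.40 (SE 0.09, adjusted p = 0.0521, edgeR), and it passed the threshold under 5 of 14 alternatives. Rm had a difference of 0.33 (SE 0.11, adjusted p = 0.128, edgeR) and passed under 3 of 14. Mpg, the largest plain difference, came to -0.05 (SE 0.11, adjusted p = 0.817, edgeR). At Hba-x and Hba-a1 the differences were -0.08 (SE 0.09) and -0.22 (SE 0.10), opposite in sign to the plain ones, and at Hba-a2 it was 0.10 (SE 0.10).

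From both viewpoints the adult genes were contacted more than the power law gives. Observed over expected at Hba-a2 was 1.26, 1.54 and 1.36 on the log2 scale from R2 and 1.26, 1.21 and 1.37 from the CTCF site. At Hba-a1 it was 0.54, 0.87 and 0.77 from R2 and 0.84, 0.91 and 1.08 from the CTCF site. The excess was not particular to these genes, since bins outside the windows had higher means. These were 2.09 from R2 and 2.21 from the CTCF site at 32200001 to 32202000, and 2.09 and 1.83 at 32208001 to 32210000. Between the windows of the adult genes, the bin at 32192001 to 32194000 lay below expectation, at -2.51 and -2.34. The downstream CTCF site at +44 stood at 1.04, 1.11 and 0.72 from R2 and 1.11, 0.38 and 0.91 from the upstream site. R4 stood far below its expectation from both, at -2.63, -2.59 and -3.21 from R2 and -2.48, -2.46 and -2.52 from the CTCF site. Whether the number and length of NlaIII fragments in a window move these values was not tested, and that number is the same from both viewpoints.

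**Figure D3:**
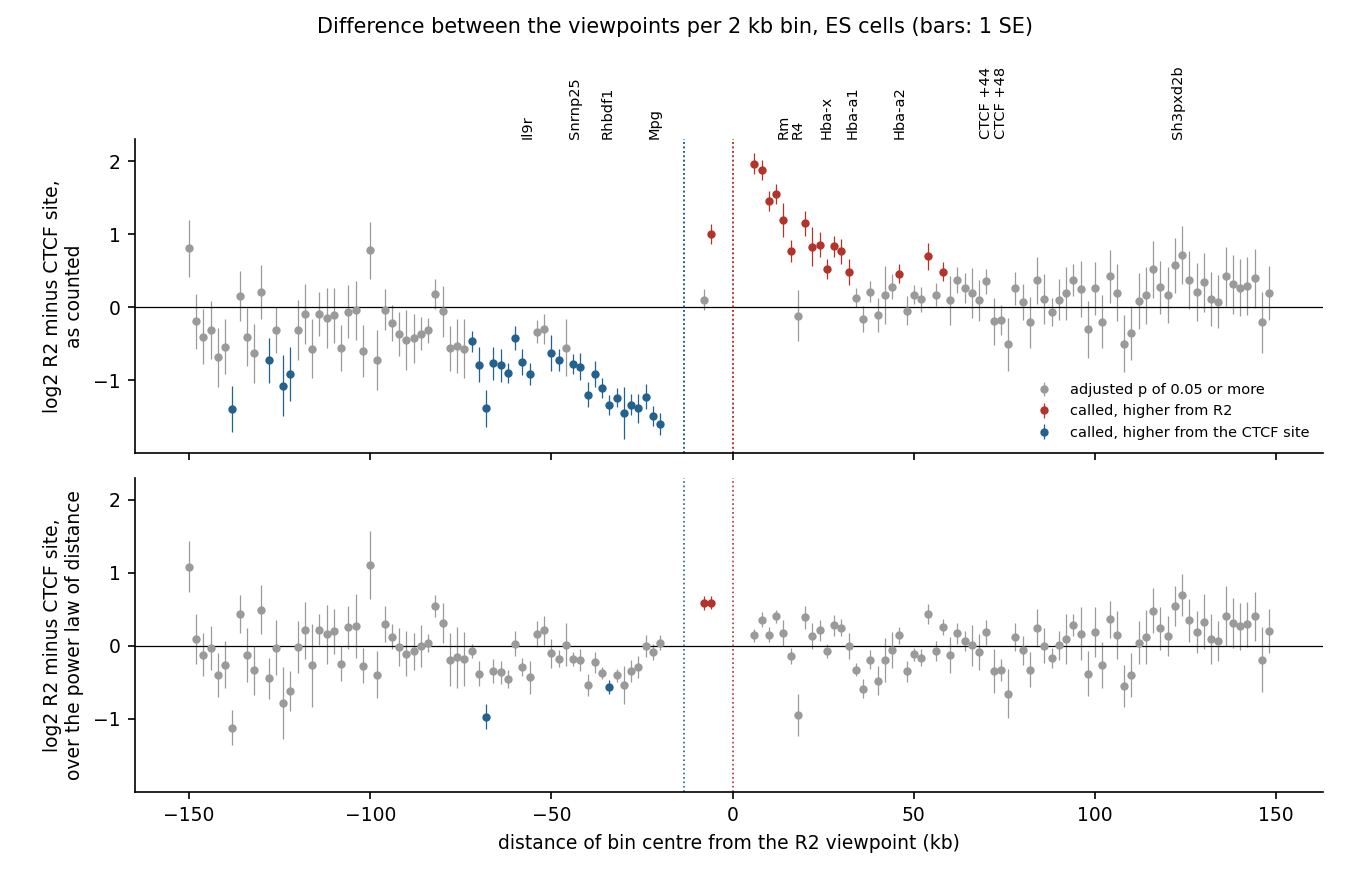
Log2 difference R2 minus the CTCF site in each 2 kb bin with 1 SE, by distance from R2 in kb, as counted (upper panel) and over the power law of distance (lower panel); coloured points passed edgeR's threshold. Of 45 coloured points in the upper panel, 28 are blue and lie upstream of the CTCF site, and 4 points are coloured in the lower panel.

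Each viewpoint was also seen from the other. A 3 kb window at R2 had 59.4, 56.1 and 43.2 contacts per 1000 pairs from the CTCF site, and a 3 kb window at the CTCF site had 50.5, 44.03 and 45.2 from R2. In erythroid cells, from the same kind of library, these were 25.8, 18.5 and 30.8 and 35.4, 32.3 and 37.5. The ES replicates lay above the erythroid ones in both directions. All viewpoints were captured in every library, so a molecule that holds both can be enriched by either, and the part of this in the reciprocal contact was not tested.

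The sides were also compared at equal distances from each viewpoint. Among contacts 10 to 130 kb from the own viewpoint, those on the gene side made up 51.0%, 54.1% and 50.6% from R2 and 52.9%, 54.8% and 51.1% from the CTCF site. The mean difference was -0.99 percentage points ± 0.77 (SD over 3 pairs), negative in all 3 replicates, with an exact sign-flip permutation p of 0.25, the smallest that 3 pairs allow. Each count includes the other viewpoint, which lies upstream of R2 and downstream of the CTCF site. From 20 kb on, which leaves it out, the shares were 58.8% ± 1.94 from R2 and 51.5% ± 1.82 from the CTCF site, and the difference turned to 7.23 points ± 0.90, positive in all 3 replicates (exact permutation p = 0.25). Back at 10 to 130 kb, leaving out pairs under 5 kb apart gave 2.06 points ± 2.81, positive in 2 of 3 replicates (exact permutation p = 0.5).

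By distance, R2 had 21.5 ± 1.07 contacts per kb and 1000 pairs upstream at 10 to 20 kb, the band that holds the CTCF site, against 10.8 ± 0.93 on the gene side (SD, n = 3). At 20 to 40 kb the order turned, with 6.24 ± 0.67 upstream and 8.62 ± 0.34 on the gene side, and at 40 to 80 kb it was 3.74 ± 0.58 and 6.09 ± 0.44. From the CTCF site the band at 20 to 40 kb had 9.07 ± 1.13 upstream, where Snrnp25 and part of the Rhbdf1 window lie, and 5.53 ± 0.26 on the gene side. At 40 to 80 kb, which on the gene side holds Hba-a1 and Hba-a2, the levels from the CTCF site were 4.91 ± 0.20 upstream and 6.20 ± 0.08 on the gene side. Upstream and gene-side replicates did not overlap in any of these bands. They did overlap from R2 at 80 to 130 kb, with 1.67 ± 0.19 upstream and 1.87 ± 0.29 on the gene side. From the CTCF site they stayed apart in that band, at 1.37 ± 0.15 and 2.31 ± 0.11. The same held at 10 to 20 kb, which on the gene side holds R2, at 9.78 ± 0.72 and 13.6 ± 0.44.

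The pairs themselves show what meets on 1 allele, but many hold neighbouring fragments. Of the ES pairs outside the 5 kb zones, 36.4% to 54.3% were of abutting fragments, by viewpoint and replicate. Fragments under 5 kb apart made up 58.2% to 81.6%. Outside the 5 kb zones, both fragments lay downstream of R2 in 53.2%, 58.5% and 52.5% of pairs captured with R2 and in 31.7%, 35.3% and 30.1% of those captured with the CTCF site. Both lay upstream of the CTCF site in 24.6%, 24.4% and 23.1% from R2 and 47.2%, 50.2% and 47.2% from the CTCF site. The shares differed by 22.4 ± 0.87 and -24.2 ± 1.57 percentage points (SD over 3 pairs), the same way in all 3 replicates, with an exact sign-flip permutation p of 0.25 and 0.292 adjusted over the 7 classes. Pairs with 1 fragment on each side, which bridge both flanks on 1 allele, made up 10.5%, 4.34% and 10.9% from R2 and 12.1%, 6.20% and 13.9% from the CTCF site. They were lower from R2 in each replicate, by 2.16 points ± 0.70 (exact permutation p = 0.25, adjusted 0.292). With pairs under 5 kb apart left out, the bridging class made up 27.3% ± 3.18 from R2 and 31.1% ± 2.05 from the CTCF site (SD, n = 3). From R2 this was beside 11.7% with both fragments upstream and 45.1% with both downstream. From the CTCF site it was beside 31.6% with both fragments upstream and 25.6% with both downstream.

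Relative to the domain from the CTCF site to 50 kb beyond Hba-x, 50.8%, 62.1% and 51.8% of R2 pairs had both fragments inside, against 29.5%, 33.8% and 27.7% of CTCF-site pairs. Pairs with both fragments outside made up 32.7% ± 1.20 from R2 and 56.8% ± 1.5025 from the CTCF site. Pairs that joined the inside to the outside made up 15.1%, 6.15% and 15.8% from R2 and 14.8%, 7.68% and 16.1% from the CTCF site. Here the viewpoints overlapped (mean difference -0.51 points ± 0.94, exact permutation p = 0.75), and the sign turned when each fragment pair was counted once (2.45 points). The level moved too, to 21.7% from R2 and 19.2% from the CTCF site when counted once, and to 38.9% and 37.2% with pairs under 5 kb apart left out. Replicate 2, whose fragments lay closest together, had the lowest share from both viewpoints, and without it the mean difference was 0.0010 points. In erythroid cells the same crossing pairs made up 6.02% ± 0.33 from R2 and 13.3% ± 1.91 from the CTCF site, and pairs inside the domain 83.1% ± 1.67 and 40.8% ± 4.59.

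**Figure D4:**
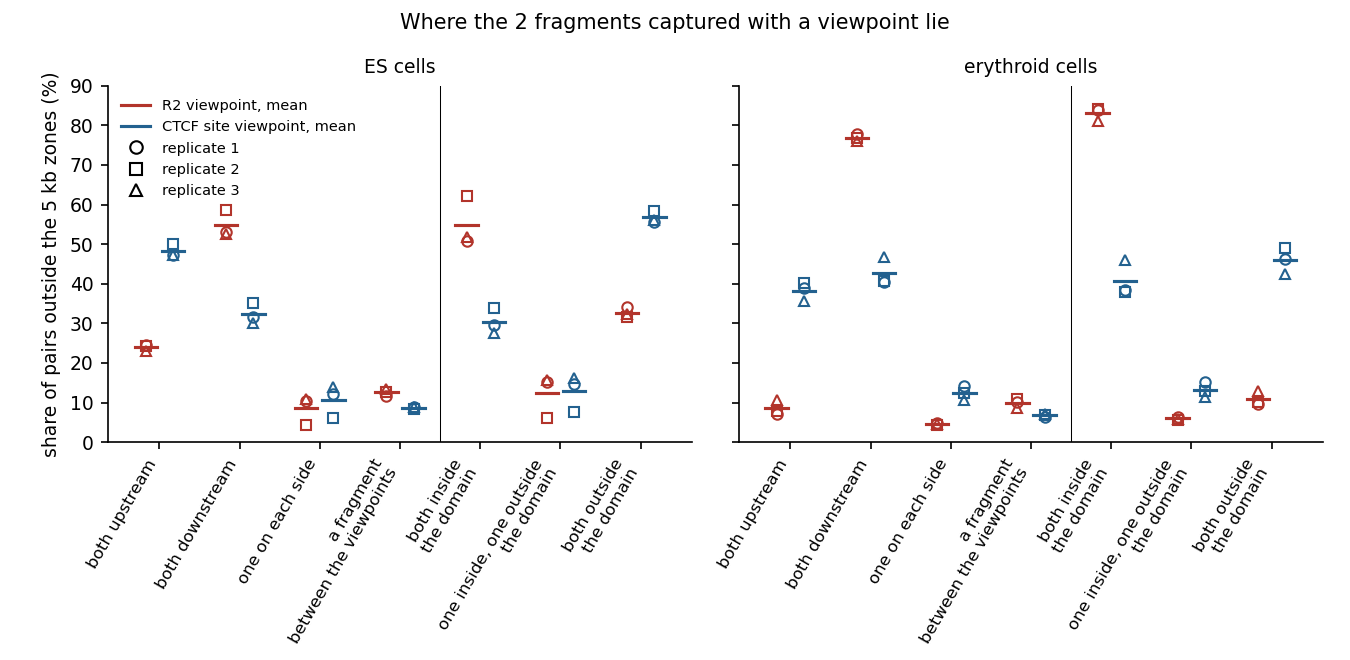
Share (%) of pairs outside the 5 kb zones by where both fragments lie, in ES (left) and erythroid cells (right), with R2 in red, the CTCF site in blue, 1 symbol per replicate and a bar at the mean; the first 4 classes and the last 3 each sum to the whole. In ES cells the crossing classes overlap between the viewpoints, while both fragments lay inside the domain in 50.8% to 62.1% of R2 pairs and 27.7% to 33.8% of CTCF-site pairs.

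Over pairs of 5 kb bins, 47 of 722 tested (6.51%) differed between the viewpoints in edgeR's quasi-likelihood test, 26 higher from R2 (3.6%) and 21 higher from the CTCF site (2.91%), while 104 had an unadjusted p under 0.05. Among the 248 bin pairs with both bins on the gene side, 23 were higher from R2 and none from the CTCF site, with a median log2 difference of 0.57. Among the 176 with both bins upstream of the CTCF site, 18 were higher from that site and none from R2, with a median of -1.56. Of the 245 that bridge both flanks, 2 were higher from R2, with a median of -0.15 beside -0.15 over all 722. Replicate values did not overlap in 135 bin pairs (18.7%). The bin next to R2 took part in 13 of the 26 calls higher from R2, and that next to the CTCF site in 10 of the 21 others, and in 9 and 8 calls both fragments lay in the same bin. A bin pair was not corrected for the levels of its single bins or for distance, so these calls are not independent of those for bins. Here too edgeR pooled the spread, over all bin pairs, so a p at 1 bin pair is far smaller than 3 replicates alone could give. DESeq2 called 105, and the count was 18 without the replicate block, 15 with the first technical replicate alone, 31 without replicate 1 and 20 without replicate 3. With TMM factors the split was 33 higher from R2 and 10 from the CTCF site.

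The pair of 32155001 to 32160000, at R3, with 32180001 to 32185000, at Hba-a1, was the firmest of the named pairs. It was captured 1.95, 1.19 and 1.57 times per 1000 pairs with R2 and 0.63, 0.02 and 0.07 times with the CTCF site. The log2 difference was 3.56 (SE 0.70, adjusted p = 2.09e-05, edgeR), from 424 counts of 94 different fragment pairs against 68 counts of 21. It passed the threshold under all 10 alternatives, with log2 differences of 2.14 to 5.04. The bin at 32165001 to 32170000 takes in parts of both the Rm and the R4 window. Its pair with 32205001 to 32210000, beyond Hba-a2, had 106 counts with R2, from 23 fragment pairs. With the CTCF site it had 2 counts, from 1 fragment pair. The ratio of levels was 41.4, with a 95% exact interval of 11.2 to 347. The interval takes every count as independent, so it is too narrow if counts of a fragment pair are copies. The call of this bin pair was lost without the block and without replicate 1 or 3.

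Bins bridging both flanks gave a call for 32090001 to 32095000, at Il9r, with 32155001 to 32160000, at R3. The levels were 1.11, 0.54 and 1.37 with R2 and 0.14, 0 and 0.11 with the CTCF site, a log2 difference of 3.85 (SE 0.91, adjusted p = 0.00102, edgeR), a call lost without replicate 3 and with the first technical replicate alone. The other 2 pairs named on this side lay wholly on the gene side, at 3.99 and 3.61 on the log2 scale, and both calls were lost under at least 5 alternatives.

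All 5 pairs named for the CTCF site shared 1 bin, 32125001 to 32130000, at Mpg, joined to bins from 32080001 to 32110000, around Il9r and Snrnp25. With 32095001 to 32100000 the levels were 0.27, 0 and 0.20 from R2 and 0.88, 1.33 and 1.39 from the CTCF site, a log2 difference of -3.25 (SE 0.79, adjusted p = 0.00162, edgeR), from 47 counts of 12 fragment pairs against 221 counts of 49. With 32100001 to 32105000 they were 0.28, 0 and 0.02 against 0.86, 1.06 and 0.88, a log2 difference of -4.24 (SE 1.03, adjusted p = 0.00156, edgeR). In both the viewpoints did not overlap, and both calls were lost without replicate 3. The other 3 had log2 differences of -5.04, -3.18 and -3.15, and each lost its call under at least 4 alternatives.

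**Figure D5:**
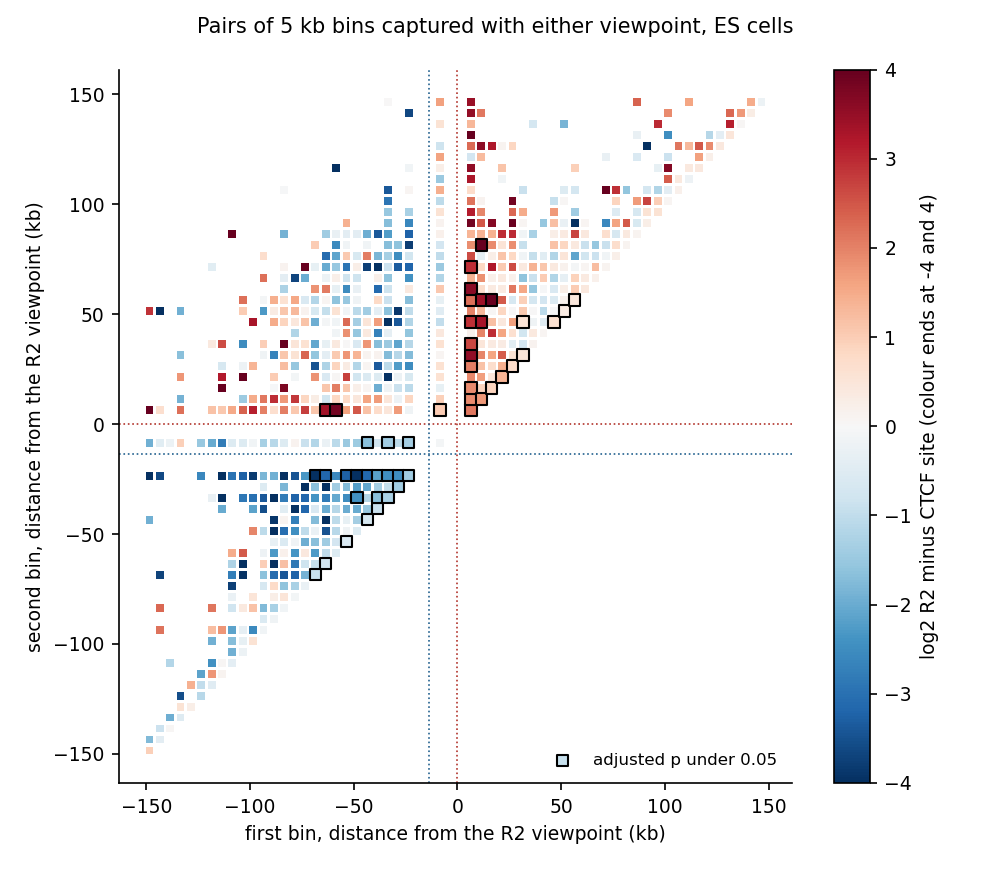
Log2 difference R2 minus the CTCF site for 722 pairs of 5 kb bins in ES cells, each axis giving the distance of a bin from R2 in kb, with colours ending at -4 and 4 and black frames on the 47 pairs past edgeR's threshold. Framed red squares lie mostly in the gene-side corner and framed blue squares in the upstream corner, many of them in the column or row next to a viewpoint.

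Three-way contacts that hold both viewpoints can be read from either table, as a level of the third partner with the other viewpoint as the second. Mpg was the third partner in 8.17, 5.68 and 5.92 of 1000 pairs from R2 and in 6.40, 3.57 and 3.46 from the CTCF site. R1 was in 5.52, 4.58 and 5.53 from R2 and in 7.76, 5.69 and 7.16 from the CTCF site. For Hba-a2 the levels were 0.58, 0.65 and 0.68 from R2 and 0.63, 0.39 and 0.93 from the CTCF site. At the CTCF site at +44 they were 0.92, 0.29 and 0.49 from R2, from 36 fragment pairs, and 0.61, 0.16 and 0.68 from the upstream site, from 25. Replicate values overlapped between the tables at Mpg, Hba-a2 and +44. At R1 and R3 those from the CTCF site lay above those from R2. The R3 levels were 3.98, 3.04 and 5.21 from R2 and 7.91, 8.22 and 7.98 from the CTCF site. At +48 the order was turned, with 1.00, 0.18 and 0.43 from R2 and 0.13, 0.12 and 0.02 from the upstream site. Those +48 levels rest on 33 fragment pairs from R2 and 6 from the upstream site. All these levels are given without a test, since both tables read the same molecules in part.

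Against the active locus, the difference between the viewpoints was itself different. The interaction of viewpoint and cell type, tested with edgeR over all 12 summed columns, passed the threshold in 87 of 140 bins (62.1%). Relative to ES cells, the R2 minus CTCF-site difference was larger in erythroid cells in 17 of them and smaller in 70, with a median over all bins of -1.28 on the log2 scale. The balance rests on the scaling to in-range pairs. With TMM factors the median was 0.07, and 23 bins were larger and 3 smaller in erythroid cells, and with DESeq2's size factors 23 were larger and 5 smaller. The count was 53 without ES replicate 1 and 55 without ES replicate 3.

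The windows that kept their call under all 11 alternatives were Rm, R4, Hba-x, Hba-a1 and Hba-a2. At Hba-a1, R2 had 103, 132 and 122.7 contacts per 1000 pairs in erythroid cells and the CTCF site 23.3, 18.3 and 39.1, beside 30.7 to 36.3 and 26.4 to 32.1 in ES cells. This is a log2 interaction of 1.96 (SE 0.27, adjusted p = 8.04e-06, edgeR). At Rm the erythroid levels were 63.03 ± 8.01 from R2 and 9.64 ± 1.79 from the CTCF site, at Hba-a2 116 ± 12.2 and 34.5 ± 11.8, at Hba-x 58.4 ± 3.38 and 22.9 ± 4.65, and at R4 15.9 ± 2.06 and 3.46 ± 0.79 (SD, n = 3). Over the 3 globin genes and Rm, the viewpoints were thus fully apart in erythroid cells, while in ES cells they overlapped at Hba-a1. The downstream CTCF site at +44 went the other way, with 14.2 ± 3.73 contacts from R2 and 37.1 ± 2.91 from the upstream CTCF site in erythroid cells, beside 17.8 ± 2.68 and 14.5 ± 3.93 in ES cells. Its interaction was -1.73 (SE 0.31, adjusted p = 0.00016, edgeR), and -0.37 with TMM factors (adjusted p = 0.529, edgeR).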

How the data were processed

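The deposited values are whole-number counts of fragment pairs, 1 table per viewpoint with a column per library, per the file headers. The submitters' processing notes list Trim Galore, Bowtie and the genome build mm9, without versions or settings. Removal of duplicates and the handling of reads that map to several places are not given in the sources used here. Columns of technical replicates were summed, and those of the beta-globin tables were not used here.

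Bins of 2 kb and 12 windows with at least 50 counts over 6 columns, and pairs of 5 kb bins with at least 30, were tested with edgeR 4.0.16 (quasi-likelihood, R 4.3.3), taking the in-range pairs as library size without normalization factors and adjusting p over each table by Benjamini-Hochberg. The standard error is the size of the log2 difference divided by the square root of F. Distance entered as an offset from a Poisson power law per column (statsmodels 0.14.6). Shares were compared by exact two-sided sign-flip permutation over 3 pairs. DESeq2 1.42.0 and the other alternatives are given at the end. The test scripts were tested on simulated data. Both viewpoints are read from the same libraries, so the replicate is a block. Deviations of same-numbered replicates correlated at 0.169, 0.441 and 0.231, and those of unlike numbers at -0.313 to 0.183. The value of 0.183 was for R2 replicate 1 with CTCF-site replicate 3, so the correlations set replicate 2 apart and do not separate replicates 1 and 3. The replicate numbers of ES and erythroid cells do not pair.

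Named features are all element windows and, in each direction, at most 5 bins and 5 bin pairs, those of the largest change past the threshold with the same sign in all 3 replicates. The members, windows and lists were chosen with earlier results of these data known. The bins singled out beyond distance, the R4 dip and the counts of bin pairs that hold the bin next to a viewpoint were chosen after their values were seen. No molecular identifiers are named in the labels, and PCR copies are not independent molecules. The exact interval takes every count as independent, so it is too narrow where counts are copies, and it holds no spread among replicates. In the ES tables, 3 counts correspond to 0.0235 to 0.0661 contacts per 1000 pairs.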

Additional observations from a re-analysis of the deposited data

Results flagged for a closer look

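The difference between the viewpoints changed with the cell type in the test of the interaction itself, in 87 of 140 bins and in all 12 windows (edgeR, erythroid minus ES, log2). It was larger in erythroid cells at Rm (1.36), R4 (1.69), Hba-x (0.85), Hba-a1 (1.96) and Hba-a2 (1.38), that is, toward R2. It was smaller at the downstream CTCF sites +44 (-1.73) and +48 (-1.06), at Il9r (-1.22), Snrnp25 (-1.05), Rhbdf1 (-0.78) and Mpg (-1.04), and at Sh3pxd2b (-1.53). The median over all bins was -1.28, so the 5 windows at enhancers and globin genes stand above it by 2.13 to 3.24 and the other 7 differ from it by -0.45 to 0.50. With TMM factors none of these 7 passed the threshold (adjusted p = 0.138 to 0.787, edgeR).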

How the results depend on the processing

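The count of bins that differed between the viewpoints was 45 as reported, 29 with the first technical replicate alone, 26 of 70 with 4 kb bins, 21 to 42 without 1 replicate, 37 without the replicate block, and 33 to 51 under the others. Beyond distance, the 4 calls became 2 without the replicate block, 2 with a 10 kb zone, 13 with DESeq2, 12 with 4 kb bins, 11 with all contacts scaled to the table total, 14 with a shared slope, and 0 with the first technical replicate, with close pairs left out (chosen after seeing the data, as was the scale of contacts outside the zones) or without any 1 replicate. The 47 bin pairs became 18 without the replicate block, 105 with DESeq2, 19 with a 10 kb zone, 15 with the first technical replicate and 20 to 42 without 1 replicate. The 87 bins of the cell type interaction became 26 with TMM factors, 28 with DESeq2, 88 without the replicate block and 53 to 97 without 1 replicate. Leaving out the block turned no sign among the results given.

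Some log2 differences turned sign. As counted, CTCF +48 was at 0.10 with the first technical replicate and -0.28 to 0.0055 without 1 replicate, and Sh3pxd2b at -0.0024 to 0.34. Beyond distance, counting each fragment pair once gave -0.055 at Hba-a2 and -0.062 at CTCF +44. There the first technical replicate gave -0.016 at CTCF +44, 4 kb bins gave 0.014 at Hba-x and 0.0059 at Mpg, and leaving out close pairs gave 0.0036 at Hba-a1, -0.059 at CTCF +44 and 0.0090 at Mpg. Without 1 replicate the ranges were -0.0080 to 0.16 at Hba-a2, -0.13 to 0.32 at CTCF +44 and -0.12 to 0.065 at Mpg. The cell type interaction turned with TMM factors at CTCF +48 (0.30), Il9r (0.14), Snrnp25 (0.31), Rhbdf1 (0.58) and Mpg (0.32), and with DESeq2 at the same 5 (0.17, 0.011, 0.18, 0.45 and 0.19).

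The gene-side share turned to 7.23 points from 20 kb. With close pairs left out it turned to 2.06 points ± 2.81, positive in 2 of 3 replicates. The share joining inside and outside of the domain turned to 2.45 points when counted once, 1.77 points with close pairs left out, and -0.92 to 0.0010 points without 1 replicate. The causes were not tested. With a 10 kb zone no bin lies between the viewpoints, so that class gave no value, and the Mpg window was left out. With 3 pairs no exact p falls below 0.25.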
